A study of Mus musculus with 8 samples.

Results

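Mitochondrial ribosomal proteins are the nuclear-encoded proteins of the ribosome that works inside mitochondria. They were taken as the genes of the deposited expression table whose symbol begins with Mrpl or Mrps followed by a digit, which gave 76 of 13204 genes. Poly(A) RNA of CD8 T cells was profiled by RNA sequencing in 8 libraries of mouse spleen. OT-I cells, T cells whose receptor recognises a peptide of ovalbumin (OVA), had been transferred (1000000 cells) 24 hours before a graft of skin that expresses OVA, and on day 14 the cells CD44hi, Thy1.1+ and CD8+ were sorted by whether they carried FcgRIIB, the inhibitory receptor for IgG. The positive group (FcgRIIB+) and the negative group (FcgRIIB-) hold 4 libraries each of 1000 sorted cells, and each replicate number stands for 1 pool of 3 spleens that gave a library to both groups. All 8 libraries share the OT-I background, the graft and the day, the labels give no age of the animals, and no library of cells without a graft was used here.

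The mitochondrial ribosome, or mitoribosome, translates the few messenger RNAs of the mitochondrial genome, all of which code for subunits of the respiratory chain and of ATP synthase. Its ribosomal RNAs are made in the mitochondrion, whereas its proteins are made in the cytosol and imported, so that the small (Mrps) and large (Mrpl) subunit proteins must be supplied by many separate nuclear genes. Part of these proteins have counterparts in bacterial ribosomes, and part are found only in mitochondria. Activated CD8 T cells are known to build up mitochondria and their translation as they divide and become effector cells.

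Of the 76 genes, 49 code for large subunit proteins, Mrps18a and Mrps30 among them in spite of their names, and 26 for small subunit proteins. Mrps36 is counted apart, because its protein is now known as a component of the oxoglutarate dehydrogenase complex. By protein family, 48 have relatives in bacteria and 27 do not. All 76 passed the filter on low values (1 RPKM, the read count scaled to exon length and library size, in 4 or more libraries), and none was at 0 in any library. Mrpl58 stands in the table under its older symbol Ict1 and is given below with the subunits of other names.

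RefSeq promoter windows (build GRCm38.p6) matched 67 of the 76 genes by gene ID, in 73 windows. Mrps35, 1 of 3 members called lower in positive cells when libraries were paired by pool, had no matched window. The promoters of 5 other genes on which the results below turn are shown. These genes are Mrps26 and Mrps6, also called lower with that pairing, Mrpl44, whose groups did not overlap, Mrps21, the most abundant member, and Mrpl12, which also binds the mitochondrial RNA polymerase. Each sequence is the 250 bases before the annotated start, 5′ to 3′ on the gene's strand. Capitals mark matches to the motif of NRF1, an activator of nuclear genes for mitochondria, which is a pair of GCGC separated by NT (N is any base), and to CCGGAAG, a motif of ETS factors such as GABP, on either strand.
Mrps26, chr2:130563507-130563756, plus strand: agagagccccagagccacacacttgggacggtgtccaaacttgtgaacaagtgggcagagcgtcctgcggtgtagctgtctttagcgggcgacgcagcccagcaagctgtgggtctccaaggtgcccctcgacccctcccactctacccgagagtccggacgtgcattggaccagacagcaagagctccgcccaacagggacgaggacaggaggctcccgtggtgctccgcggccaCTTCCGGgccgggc
Mrps6, chr16:92058086-92058335, plus strand: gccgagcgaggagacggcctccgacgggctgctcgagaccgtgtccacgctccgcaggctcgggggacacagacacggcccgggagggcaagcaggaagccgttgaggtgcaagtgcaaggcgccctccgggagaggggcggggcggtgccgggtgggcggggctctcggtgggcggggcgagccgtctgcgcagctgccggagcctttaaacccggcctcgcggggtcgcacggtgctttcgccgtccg
Mrpl44, chr1:79775768-79776017, plus strand: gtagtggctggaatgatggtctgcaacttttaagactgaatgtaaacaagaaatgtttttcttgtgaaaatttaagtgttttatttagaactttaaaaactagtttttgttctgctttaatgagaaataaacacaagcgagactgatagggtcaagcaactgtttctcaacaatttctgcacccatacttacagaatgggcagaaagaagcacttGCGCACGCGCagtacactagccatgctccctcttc
Mrps21, chr3:95871515-95871764, minus strand: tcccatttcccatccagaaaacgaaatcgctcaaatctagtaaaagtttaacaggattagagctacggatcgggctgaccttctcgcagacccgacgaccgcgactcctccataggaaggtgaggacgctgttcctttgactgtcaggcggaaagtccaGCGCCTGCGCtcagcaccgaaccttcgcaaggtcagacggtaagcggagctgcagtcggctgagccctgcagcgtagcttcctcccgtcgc
Mrpl12, chr11:120484387-120484636, plus strand: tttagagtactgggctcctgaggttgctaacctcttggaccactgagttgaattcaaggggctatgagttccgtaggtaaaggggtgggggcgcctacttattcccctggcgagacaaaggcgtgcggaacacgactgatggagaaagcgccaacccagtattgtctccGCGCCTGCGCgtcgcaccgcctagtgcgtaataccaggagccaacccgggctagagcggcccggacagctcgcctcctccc

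Mrpl44, Mrps21 and Mrpl12 each held 1 NRF1 match, Mrps26 held 1 ETS match and Mrps6 held neither in this window. Mrps9 and Mrpl1, whose groups did not overlap either, are not shown, and their windows held 0 matches to either motif. Mrpl44 was picked for display after its values were seen. Over all windows of the members, 10 of 73 (13.7%) held the NRF1 motif, compared with 3.74% of all 32851 promoter windows of the reference. The ETS motif was in 16 of 73 (21.9%), compared with 6.91% of all windows. Counted by gene and against the genes of the expression table alone, the shares were closer, at 14.9% against 8.96% for NRF1 and 23.9% against 15% for ETS. CACGTG, the E-box bound by MYC, was in 7.46% of member genes and 9.76% of table genes, and CCATNTT, bound by YY1, in 14.9% and 12.4%. A stricter NRF1 form with AT between the GCGC pair, whose matches all count for the first motif too, was in 4.48% of member genes and 1.83% of table genes. The median GC content was 58.4% in member windows and 59.2% in windows of table genes, and TATAAA in the last 50 bases before the start was in 0 of 73 member windows and 1.58% of windows of table genes. These are matches of letters, given without a test.

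Some members lay head to head with another gene. In GENCODE M21, 18 of 76 (23.7%) had a protein-coding gene on the opposite strand starting within 500 bases, compared with 9.77% of 12424 protein-coding genes of the table. Among the partners were Sars2, the mitochondrial seryl-tRNA synthetase, beside Mrps12, the proteasome gene Psma2 beside Mrpl32, and the complex I gene Ndufs6 beside Mrpl36. In the RefSeq windows the small subunit gene Mrps11 and the large subunit gene Mrpl46 lie on opposite strands of chromosome 7 and run away from each other, with starts 42 bases apart; this pair is not among the 18 counted from GENCODE. For 24 members an exon overlapped an exon of another annotated gene, for 20 of them on the opposite strand and for 4 on the same strand. SMART-seq cDNA and Nextera XT libraries, which the labels name, keep no strand, so reads of genes that overlap on opposite strands cannot be told apart. Of the genes named below this touches Mrps7, Mrps18b, Mrps25 (with Nr2c2), Mrps26, Mrps27, Mrps30, Mrpl10, Mrpl12, Mrpl18 (with Tcp1), Mrpl19, Mrpl24, Mrpl27, Mrpl47 and Mrpl48. On the same strand Mrps6 overlapped Slc5a3 and another gene, and Mrps18c and Mrpl33 each overlapped 1 gene, and how reads in such overlaps were counted is not known here.

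Depth recovered from the RPKM steps ran from 3050000 reads in negative replicate 4 to 22010000 reads in positive replicate 2, with replicates 3 and 4 the shallower in both groups. Fcgr2b, the gene of the sorted receptor, lay between 29.6 and 69.9 RPKM in positive and between 1.82 and 4.82 RPKM in negative libraries. Defining T cell genes were present in all libraries, and the 16 core T cell genes summed to 2180 to 4853 RPKM in positive and 5749 to 9465 RPKM in negative libraries. Dendritic cell genes (11 of 12 called higher, sum 759.6 to 1252 against 26.6 to 82.1 RPKM) and macrophage and monocyte genes (10 of 13, sum 2952 to 5362 against 252.0 to 1555 RPKM) were higher in positive libraries. Basophil and mast cell genes (3 of 7 called higher) summed to 61.2 to 1277 RPKM in positive against 8.52 to 41.4 RPKM in negative libraries, and B lineage genes (1 of 6 called higher) to 468.8 to 1051 against 76.2 to 863.7 RPKM. These calls come from the fit by group alone, in which 3.03% of all genes tested were called higher. No defining gene of these lists was at 0 in a positive library, and Clec10a, Fcer1a and Mcpt8 were each at 0 in 1 negative library. By the 2 most abundant genes of each list, log2 fold changes were -0.95 and -0.98 (Cd8b1, Cd3g), 4.16 and 5.40 (Naaa, Dnase1l3), 3.16 and 2.19 (Tyrobp, Lyz2), 5.77 and 3.54 (Mcpt8, Prss34) and 5.60 and -0.67 (Jchain, Cd79a). The part of these other cells in the values below was not tested, and in bulk RNA fewer cells of a type and less RNA per cell cannot be told apart.

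The level of the members differed widely between the pools. Averaged over the 76 genes, log2(RPKM + 1) was 4.86, 4.71, 5.93 and 5.85 in positive replicates 1 to 4 and 4.99, 5.65, 6.00 and 5.69 in negative replicates 1 to 4. Positive replicates 1 and 2 and negative replicate 1 lay lowest, the other 5 libraries lay at 5.65 or more, and the groups overlapped. The group means were 5.33 ± 0.64 in positive and 5.58 ± 0.42 in negative libraries (SD, n = 4 each). Positive replicate 2 was the lowest library for 44 of the 76 genes (57.9%, compared with 19.1% of all genes tested), and negative replicate 3 was the highest for 29 (38.2%, compared with 8.72%).

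**Figure D1:**
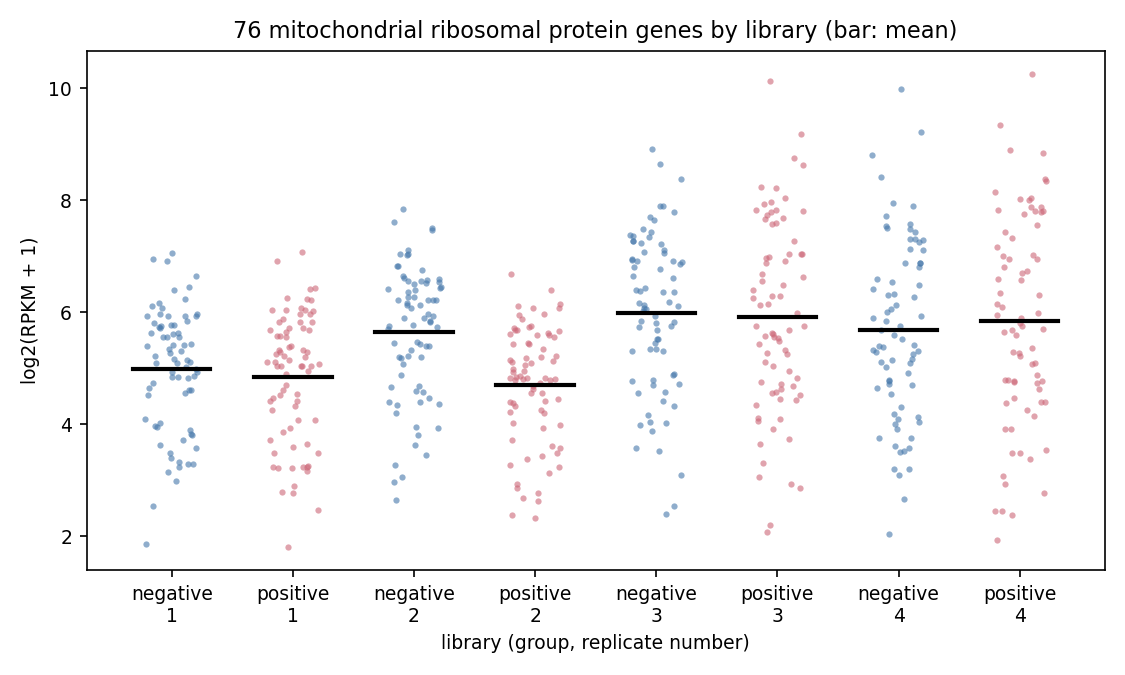
Level of each of the 76 mitochondrial ribosomal protein genes, as log2(RPKM + 1), in each of the 8 libraries, ordered by pool with the negative library of a pool before the positive one; points are genes and bars their mean. The mean lies between 4.71 in positive replicate 2 and 6.00 in negative replicate 3, and the most abundant gene reaches 1217 RPKM in positive replicate 4.

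Per length of exon, mean levels over the 8 libraries ran from 4.07 RPKM for Mrps22 to 555 RPKM for Mrps21. The most abundant was Mrps21, a small subunit protein of a bacterial family, at 135, 102, 1123 and 1217 RPKM across positive replicates 1 to 4, against 132, 230.1, 485 and 1014 RPKM across negative replicates 1 to 4. All 4 libraries of replicates 3 and 4 were above all 4 of replicates 1 and 2, whichever the sorted group. Mrpl23, at the exit of the peptide tunnel, was at 85.6, 68.2, 579.7 and 653 RPKM across positive replicates 1 to 4, against 99, 177, 401 and 595 RPKM across negative replicates 1 to 4. Mrps16, in the body of the small subunit, was at 84.1, 61.2, 429.9 and 476 RPKM across positive replicates 1 to 4, against 123, 194, 334 and 447 RPKM across negative replicates 1 to 4. Mrps18c, of the S18 family, was at 64.3, 47.4, 398 and 458 RPKM across positive replicates 1 to 4, against 60.03, 91.3, 199 and 341 RPKM across negative replicates 1 to 4. The fifth by level, Mrps33, a small subunit protein with no bacterial relative, was at 66.2, 66.8, 302 and 334 RPKM across positive replicates 1 to 4, against 66.8, 113, 220.5 and 189 RPKM across negative replicates 1 to 4. In all 5 of these genes each library of replicates 3 and 4 lay above each library of replicates 1 and 2, and in none did the sorted groups separate. Their log2 fold changes, positive minus negative, were 0.08, -0.23, -0.43, 0.15 and 0.13, with standard errors of 0.89, 0.82, 0.71, 0.79 and 0.63.

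At the other end Mrps22, a small subunit protein of mitochondria only, was at 2.52, 4.02, 3.58 and 2.83 RPKM across positive replicates 1 to 4, against 2.64, 6.81, 4.8 and 5.37 RPKM across negative replicates 1 to 4. Mrps2, Mrps31, Mrpl1 (of the stalk by which used tRNA leaves) and Mrpl19 made up the rest of the 5 lowest. They lay at 3.10 to 7.38, 4.45 to 10.3, 5.44 to 10.96 and 5.88 to 13.7 RPKM over the 8 libraries. Mrpl1 was at 6.43, 5.44, 7.33 and 6.69 RPKM across positive replicates 1 to 4, against 8.78, 8.71, 11 and 8.26 RPKM across negative replicates 1 to 4, so that each positive library was below each negative one. The other 4 overlapped between the groups. Their differences on the log2 scale were -0.44 for Mrps22, -0.23 for Mrps2, -0.31 for Mrps31, -0.44 for Mrpl1 and -0.57 for Mrpl19, none called. The lowest count of reads behind any member was 44, for Mrps34 in negative replicate 4, and the median member had 202 to 1312 reads per library.

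Between the sorted groups no mitochondrial ribosomal protein gene passed the test. In limma on log2(RPKM + 1), with Benjamini-Hochberg adjustment over 11946 genes, 0 of 76 were called higher, where 3.03% of all genes were, and 0 were called lower, where 0.268% were. At an unadjusted p under 0.05, 0 were higher (7.48% of all genes) and 3 lower (4.67%), namely Mrps35, Mrps9 and Mrps26. The log2 fold change was below 0 for 61 of 76 (80.3%), as for 61.2% of all genes, and ran from -0.90 to 0.42 with a median of -0.25, compared with -0.11 over all genes. The median standard error of a member was 0.41, close to the 0.40 of all genes, so differences of about this size lay within the error. The sign depends on the scaling: with each library scaled to its core T cell genes, all 76 lay above 0, with a median of 0.74 compared with 0.87 for all genes, and 0 were called, where 9.41% of all genes were called higher.

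Pairing the libraries by pool gave 3 calls. With the replicate number as a block, 3 of 76 were lower (3.95%), where 3.85% of all genes were, and 0 were higher, where 7.22% were. The median standard error of a member was 0.26 in this fit. The 3 were Mrps35, Mrps26 and Mrps6, all of the small subunit. The share of members called lower was close to that of all genes. With other scalings beside the block, chosen after seeing the data, 3 (common sum of RPKM), 2 (median ratios) and 2 (quantile normalization) of these were lower, where 4.22%, 2.96% and 4.22% of all genes were. With the block and core T cell scaling together, an alternative of the same kind, 53 of 76 were higher (69.7%), where 53.9% of all genes were, none was lower, where 0.134% were, and Mrps35, Mrps26 and Mrps6 were at 0.09, 0.10 and 0.25 without a call.

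**Figure D2:**
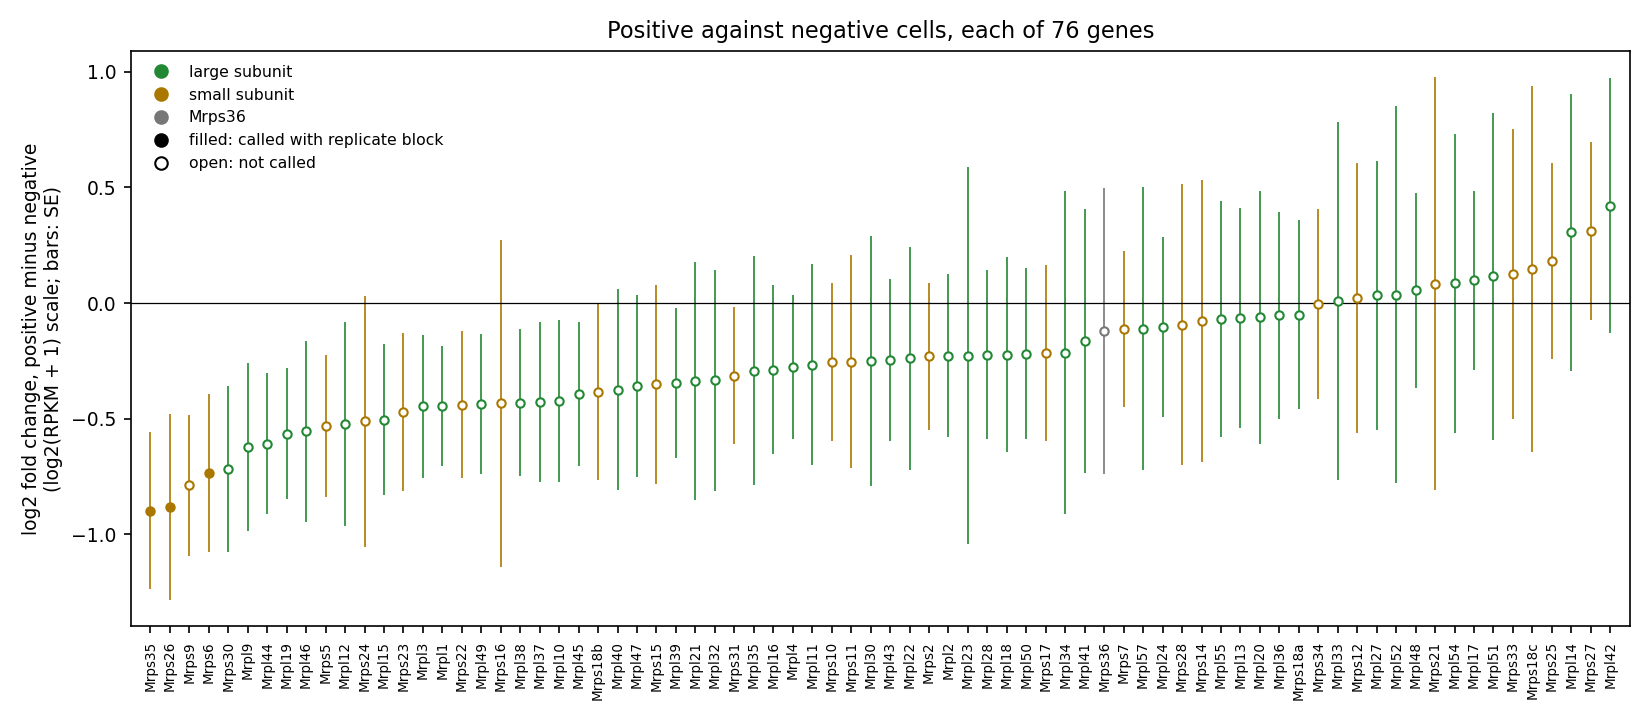
Log2 fold change of each of the 76 genes, positive minus negative on the log2(RPKM + 1) scale, with the limma standard error as bars; colour gives the subunit and filled points the 3 genes called with the replicate block (Mrps35, Mrps26, Mrps6). Values run from -0.90 to 0.42, and 61 of the 76 points lie below 0.

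Mrps35, a small subunit protein without a bacterial relative, was at 18.1, 19.2, 33.7 and 23.8 RPKM across positive replicates 1 to 4, against 38.9, 56.8, 52.3 and 31.6 RPKM across negative replicates 1 to 4. It was lower in the positive library of each pool, while across pools the groups overlapped. The means were 23.7 ± 7.12 against 44.9 ± 11.7 RPKM (SD, n = 4 each), and the log2 fold change was -0.90 (SE 0.34; adjusted p in limma 0.266, and 0.0168 with the replicate block). Mrps26, another small subunit protein of mitochondria only, was at 22, 32.3, 53 and 58.7 RPKM across positive replicates 1 to 4, against 48.7, 86.8, 97.3 and 65.6 RPKM across negative replicates 1 to 4. It too was lower in all 4 pools, by least in pool 4, with -0.88 on the log2 scale (SE 0.40; adjusted p in limma 0.407, and 0.0204 with the block). Mrps6, a platform protein, was at 22.2, 27.5, 37.9 and 33 RPKM across positive replicates 1 to 4, against 33.5, 68.9, 56.6 and 47.4 RPKM across negative replicates 1 to 4. Again all 4 pools had the lower value in the positive library, with a log2 fold change of -0.74 (SE 0.34; adjusted p in limma 0.426, and 0.0462 with the block). With 1 pool left out of the blocked fit, none of the 3 was called without pool 1, 2 or 3 (2.18%, 2.93% and 1.31% of all genes lower), and Mrps35 and Mrps26 were called without pool 4 (3.83% of all genes lower).

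Mrps9 and Mrps30, the other members among the 5 with the most negative fold change, missed the threshold with the block as well. Mrps9, in the head of the small subunit, was at 8.53, 7.8, 8.94 and 4.45 RPKM across positive replicates 1 to 4, against 10.9, 14.4, 17 and 11.2 RPKM across negative replicates 1 to 4, with every positive library below every negative one. The log2 fold change of Mrps9 was -0.79 (adjusted p in limma 0.281, and 0.0541 with the block). Mrps30, a large subunit protein, was at 10.2, 20.2, 27.4 and 20.2 RPKM across positive replicates 1 to 4, against 23.4, 41.3, 29 and 33.1 RPKM across negative replicates 1 to 4, with overlapping groups and a log2 fold change of -0.72 (adjusted p in limma 0.483, and 0.0612 with the block). Groups did not overlap for 3 of the 76 members (3.95%, compared with 4.15% of all genes lower without overlap): Mrps9, Mrpl1 and Mrpl44, all lower in positive cells. Mrpl44, a ribonuclease-like protein of the large subunit that was named after its values were seen, was at 12.3, 12.2, 12.4 and 9.45 RPKM across positive replicates 1 to 4, against 13.9, 20.2, 26.7 and 14.1 RPKM across negative replicates 1 to 4, a log2 fold change of -0.61 (adjusted p in limma 0.488). No member was higher without overlap, compared with 4.61% of all genes.

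**Figure D3:**
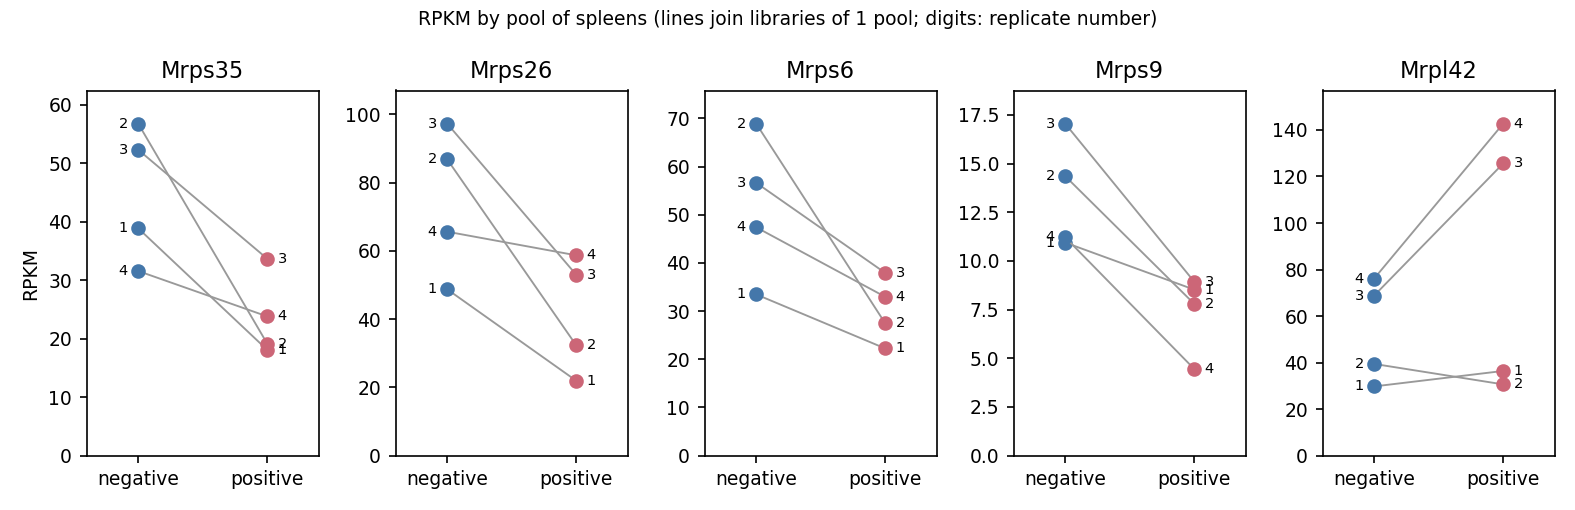
RPKM of Mrps35, Mrps26, Mrps6, Mrps9 and Mrpl42 in the negative and the positive library of each pool, with a line joining the libraries of 1 pool and the replicate number beside each point. The first 4 genes are lower in the positive library of all 4 pools, and Mrpl42, the member with the largest fold change, is higher in pools 1, 3 and 4 and lower in pool 2.

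The largest values in the other direction belonged to Mrpl42, Mrps27, Mrpl14, Mrps25 and Mrps18c. Mrpl42, a large subunit protein of mitochondria only, was at 36.4, 30.6, 126 and 143 RPKM across positive replicates 1 to 4, against 29.8, 39.4, 68.8 and 76.1 RPKM across negative replicates 1 to 4. Both positive libraries of replicates 3 and 4 lay above the rest, and replicates 1 and 2 of both groups lay together. The log2 fold change was 0.42 with an SE of 0.55. Mrps27, an RNA-binding protein of the small subunit, was at 29.9, 26.6, 19.3 and 10.7 RPKM across positive replicates 1 to 4, against 13, 24.3, 19.1 and 11 RPKM across negative replicates 1 to 4, highest in positive replicates 1 and 2, of which the second was the lowest library for most members. Mrpl14, at the face between the subunits, was at 64.9, 50.2, 219 and 262 RPKM across positive replicates 1 to 4, against 46.3, 83.3, 132 and 157 RPKM across negative replicates 1 to 4, higher in pools 1, 3 and 4. Mrps25 had a log2 fold change of 0.18 (SE 0.42) and lay at 4.22 to 16.8 RPKM. None of these 5 was called in limma, with adjusted p of 0.929 to 1.00 and of 0.348 to 0.845 with the block.

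By subunit, the medians lay close together. The 49 large subunit genes had a median log2 fold change of -0.25, with 40 below 0, and the 26 small subunit genes a median of -0.25, with 20 below 0. The 3 calls with the block were 3 of the 26 small subunit genes (11.5%) and 0 of the 49 large subunit genes, a difference that was not tested. Values ran from -0.90 to 0.31 among small subunit genes and from -0.72 to 0.42 among large subunit genes. Genes of bacterial families had a median of -0.25 over 48, and those of mitochondria only a median of -0.31 over 27. Of the latter 27, 11 were lower in all 4 pools, and of the former 48, 9 were, where 19.8% of all genes were. This difference was not tested.

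By place in the ribosome, with places assigned from general knowledge after earlier results were known, the stalk that recruits elongation factors had all 3 members below 0. Mrpl12, the stalk protein that also binds the mitochondrial RNA polymerase, was at 51.9, 51.9, 117 and 129 RPKM across positive replicates 1 to 4, against 70.5, 129, 166 and 117 RPKM across negative replicates 1 to 4. It was lower in positive replicates 1, 2 and 3 and higher in replicate 4, with a log2 fold change of -0.52 (SE 0.44; adjusted p in limma 0.802, and 0.233 with the block). Mrpl10, which holds Mrpl12 to the ribosome, was lower in all 4 pools, at -0.42, and Mrpl11, at the base of the stalk, had -0.27.

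Around the peptidyl transferase centre, where peptide bonds form, Mrpl2, Mrpl3, Mrpl4 and Mrpl16 had log2 fold changes of -0.45 to -0.23, and only Mrpl3 was lower in all 4 pools. At the tunnel exit, where new peptides meet the inner membrane, Mrpl22, Mrpl23, Mrpl24, Mrpl45 and Mrpl47 ran from -0.39 to -0.10 with a median of -0.24. Mrpl45, which anchors the ribosome to that membrane, was at 15.9, 17.5, 15.7 and 10.2 RPKM across positive replicates 1 to 4, against 15.4, 23.2, 25.5 and 15.5 RPKM across negative replicates 1 to 4, lower in pools 2, 3 and 4 and slightly higher in pool 1. In the central protuberance, which faces the tRNAs, Mrpl18, Mrpl27, Mrpl38, Mrpl40, Mrpl46 and Mrpl48 ran from -0.56 to 0.06, and Mrpl38 and Mrpl46 were lower in all 4 pools. Mrpl46 had -0.56 (blocked adjusted p = 0.191 in limma) and its head-to-head neighbour Mrps11 -0.25 (blocked adjusted p = 0.651). None of these was called.

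In the small subunit head Mrps7, Mrps9, Mrps10 and Mrps14 ran from -0.79 to -0.08. On the platform Mrps6, Mrps11, Mrps15 and Mrps18c ran from -0.74 to 0.15. Mrps5 and Mrps24, at the channel by which mRNA enters, had -0.53 and -0.51, and of these Mrps5 was lower in all 4 pools. Mrps12, of the decoding site, was at 58.3, 43, 224 and 214 RPKM across positive replicates 1 to 4, against 56.7, 96.9, 149 and 140.1 RPKM across negative replicates 1 to 4, with a log2 fold change of 0.02 (SE 0.58). Its neighbour Sars2 was at 7.43 ± 1.91 against 9.78 ± 1.95 RPKM and had -0.36. The 3 paralogs of the S18 family, which take different sites in the ribosome, had -0.05 (Mrps18a), -0.38 (Mrps18b) and 0.15 (Mrps18c). Mrps36, the dehydrogenase component, was at 50.8, 46.4, 226 and 235 RPKM across positive replicates 1 to 4, against 60.3, 92, 179.5 and 178 RPKM across negative replicates 1 to 4, a log2 fold change of -0.12 (SE 0.62).

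The difference between positive and negative cells was not the same in each pool. In pool 1, 51 of the 76 were lower in the positive library with a median log2 difference of -0.10, where 53.7% of all genes were lower. Pool 2 had 75 of 76 lower with a median of -0.96, where 55.3% of all genes were lower with a median of -0.11. In pool 3, 46 were lower with a median of -0.13 (48.9% of all genes), and in pool 4, 25 were lower and 51 higher with a median of 0.26 (69.4% of all genes lower, median -0.26). Thus 20 members (26.3%) were lower in all 4 pools, compared with 19.8% of all genes, and 0 were higher in all 4, compared with 10.3%. The median over members moved from -0.25 to -0.06 without positive replicate 2 and to -0.09 without negative replicate 3. Within replicates 1 and 2 alone the median was -0.54, with 75 of 76 below 0 and 1 called, Mrps35 (1.19% of all genes were called lower and 7.32% higher). Within replicates 3 and 4 alone it was 0.02, with 35 below 0 and 0 called (0.0921% of all genes lower and 2.29% higher).

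**Figure D4:**
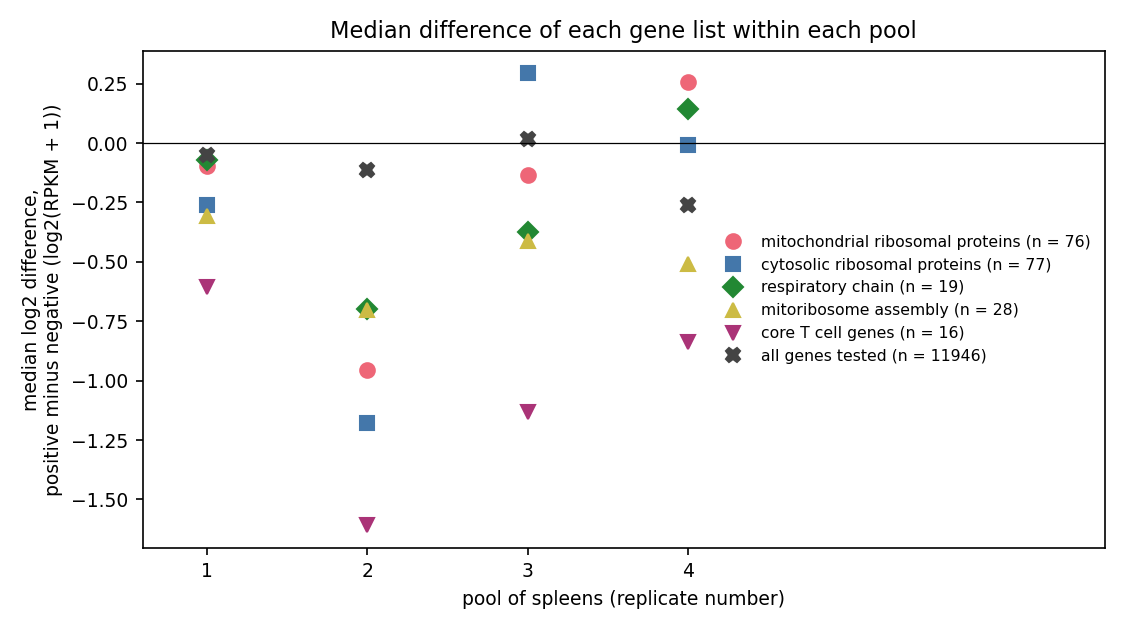
Median log2 difference, positive minus negative, within each of the 4 pools for the 76 mitochondrial ribosomal protein genes, 77 cytosolic ribosomal protein genes, 19 respiratory chain genes, 28 assembly genes, 16 core T cell genes and all 11946 genes tested. The mitochondrial ribosomal proteins lie at -0.96 in pool 2 and at 0.26 in pool 4, and the core T cell genes lie below all other lists in every pool.

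Gene families of cytosolic translation and of the respiratory chain followed the pools in part. Cytosolic ribosomal proteins, the 77 genes of the ribosome that translates nuclear messages, had medians of -0.26, -1.18, 0.29 and -0.01 in pools 1 to 4, and nuclear genes of the respiratory chain, 19 in all, had -0.07, -0.70, -0.38 and 0.14. Over all libraries the medians were -0.31 and -0.28, with 0 of 77 and 0 of 19 called in limma with or without the block. With core T cell scaling all 77 and all 19 lay above 0 (medians 0.67 and 0.71), and with the block added 67 and 18 were called higher, where 53.9% of all genes were. Uqcrc1 and Ndufv1, core proteins of complexes III and I, had the smallest p of the respiratory chain list, at -0.48 and -0.40. Core T cell genes were lower in every pool, with medians of -0.61, -1.61, -1.13 and -0.84, so pool 2 was the lowest for these as well. These values are side by side and were not tested against each other.

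Between replicates 3 and 4 and replicates 1 and 2, taken over both groups, 14 of the 76 members (18.4%) were lower in replicates 3 and 4, compared with 51.7% of all genes, and 62 were higher. The median difference was 0.72 on the log2 scale, compared with -0.04. For 54 of the 76 this difference was larger in size than that between the sorted groups, and the share over all genes was not computed. The difference between the replicate sets fell with exon length among members below 5000 bases. The 13 members with under 750 bases of exon were all higher in replicates 3 and 4, with a median of 1.63, where all 304 genes of that length had 2.06. From 1000 to below 1500 bases 21 members had a median of 0.49 and all genes 0.35. From 2500 to below 5000 bases 11 members had 0.09 and all genes -0.18. The 5 members of 5000 bases and over departed from this, with a median of 0.87 and 4 of 5 above 0, where all genes had -0.21. Across the 76 members Spearman's rho of exon length with this difference was -0.48, and across all genes -0.27. With mean RPKM the rho was 0.72 across members and -0.33 across all genes, and length and mean RPKM themselves had a rho of -0.795 across members. These values describe genes of the same 8 libraries and are not tests, and the parts of length and level were not separated. Members are short as a group, with a median exon length of 1260 bases compared with 3420.5 over all genes. Some longer members departed from the class of their length, such as Mrpl33 (2.33 at 2480 bases), Mrpl42 (1.51 at 3738 bases) and Mrps25 (1.12 at 6065 bases), named after their values were seen. At the other end Mrpl10, Mrps27 and Mrps2 were lower in replicates 3 and 4, at -0.61, -0.60 and -0.56.

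**Figure D5:**
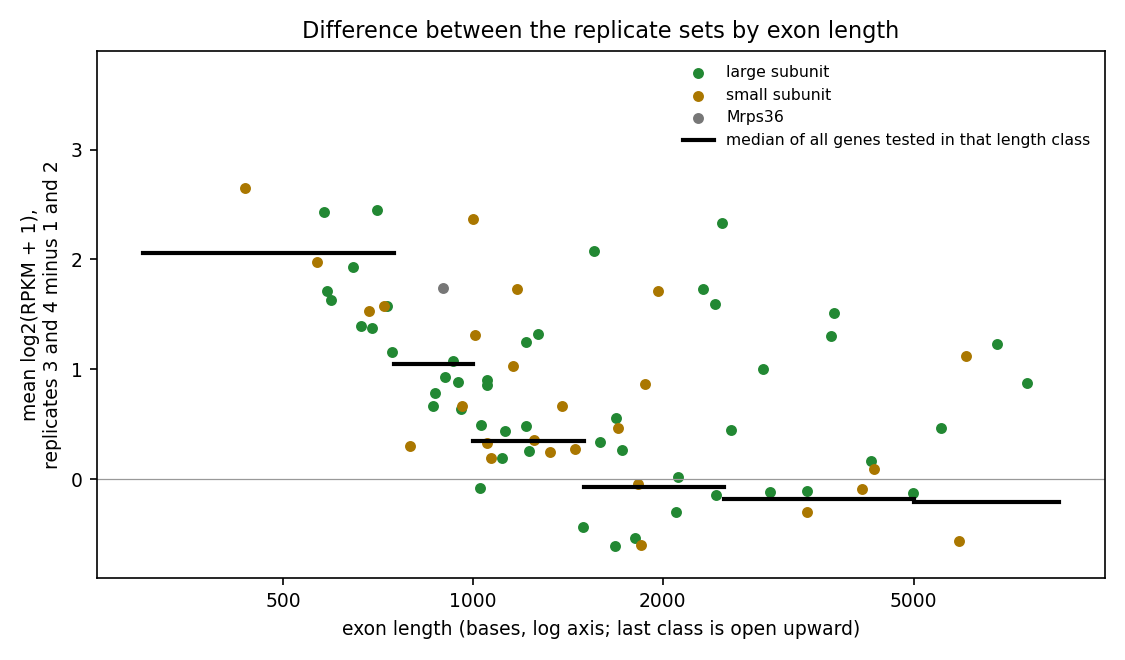
Mean log2(RPKM + 1) of replicates 3 and 4 minus that of replicates 1 and 2, over both groups, against exon length on a log axis for each of the 76 genes (points, coloured by subunit) with the median of all genes tested in each length class (black bars). Members under 750 bases lie between 1.16 and 2.65, and the bars fall from 2.06 to -0.21 with length.

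Inside the pools, the difference between the sorted groups went with exon length in some and not in others. In pool 1 the members' medians by length class lay between -0.17 and -0.01 with no order by length. In pool 2 all 304 genes under 750 bases had a median of -1.07 and the 13 members of that length -1.15, while genes of 5000 bases and over had 0.38 and the 5 members among them -0.58. In pool 3 genes under 750 bases had 0.66 and members 0.53, and in pool 4 they had 0.25 and 0.42. The 5 members of 5000 bases and over had 0.13 in pool 3 and 0.46 in pool 4, where those of 2500 to below 5000 bases had -0.33 and -0.27. Genes of 1500 to below 2500 bases had -0.46 in pool 2, and the 17 members of that length -0.94. In the same pool genes of 750 to below 1000 bases had -0.96 and the 9 members of that length -1.22. Genes of 1000 to below 1500 bases had -0.80 there and the 21 members of that length -0.97. In pool 3 all genes of these last classes had 0.10 and -0.20, and their members -0.22 and -0.30. In pool 4 all genes of them had 0.34 and -0.03, and their members 0.36 and 0.26. The part of length in the members' values was not tested beyond these classes.

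The other genes of mitochondrial translation were mostly below 0, with few calls. Among all genes 61.2% were below 0, 19.8% were lower in all 4 pools and 4.67% were lower before adjustment (p under 0.05). In limma 0.268% of all genes were called lower by group alone and 3.85% with the block. Of 6 mitoribosome subunits that carry other names none was called, and 5 were below 0 (median -0.48). Dap3, a small subunit GTPase, had means (± SD, n = 4 each) of 13.6 ± 2.11 against 23.6 ± 7.16 RPKM (log2 fold change -0.71, adjusted p in limma 0.384, and 0.066 with the block), and Ict1, the large subunit peptidyl-tRNA hydrolase now called Mrpl58, at 85.4 ± 46.5 against 118 ± 35.9 RPKM (-0.58). Of 28 tested genes that assemble the mitoribosome or modify its RNA, 27 were below 0 with a median of -0.45, 14 were lower in all 4 pools, 0 were called in limma, with 3 lower and none higher before adjustment (p under 0.05), and 1 was lower with the block. That gene was Rpusd3, a pseudouridine synthase family member of mitochondria, at 4.47 ± 0.9 against 9.4 ± 1.35 RPKM with a log2 fold change of -0.93 (SE 0.27; adjusted p in limma 0.111, and 0.0308 with the block). Unlike the median of the ribosomal proteins, that of the assembly genes was below 0 in each pool, at -0.31, -0.70, -0.41 and -0.51. The same held for the translation factors, synthetases and genes for mitochondrial DNA and transcription given next. It also held for the regulators of mitochondrial biogenesis and the genes of mitochondrial mass. In pool 4 the median was 0.26 for the ribosomal proteins and -0.26 for all genes. These differences between lists were not tested.

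Of 16 translation factors 15 were below 0 (median -0.31), where 61.2% of all genes were, and none was called in either fit. The nearest were Mrrf, which recycles ribosomes, at -0.56 (adjusted p in limma 0.467), and Tsfm, which reloads the elongation factor Tufm, at -0.47 (0.61). Of 20 mitochondrial aminoacyl-tRNA synthetases 18 were below 0 (median -0.43) and none was called. Mars2 and Fars2, which charge the tRNAs for methionine and phenylalanine, had -0.67 and -0.60. Among 17 genes for mitochondrial DNA and transcription, which supply the ribosomal RNAs, the median was -0.34. Of these 2 were lower with the block and 0 without, where 3.85% and 0.268% of all genes were. Tfam, which packs mitochondrial DNA and starts its transcription, was at 10.1 ± 2.01 against 19.95 ± 5.55 RPKM, lower in all 4 pools and without overlap (log2 fold change -0.89, SE 0.31; adjusted p in limma 0.199, and 0.0259 with the block). Mterf2, of the mitochondrial termination factor family, had -0.93 (adjusted p in limma 0.33, and 0.0403 with the block).

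Of 10 tested regulators of mitochondrial biogenesis 8 were below 0 (median -0.32), where 61.2% of all genes were. In limma 0 were called, and 2 were lower with the block, where 3.85% of all genes were. Myc, which drives growth and ribosome genes in activated T cells, was at 16.9 ± 4.6 against 34 ± 19.3 RPKM (-0.85; adjusted p in limma 0.441, and 0.0316 with the block), and its partner Max at 11.5 ± 2.96 against 20.1 ± 5.2 RPKM (-0.74; 0.345 and 0.0479). Nrf1 and Gabpa, which bind the motifs counted above and were named after their values were seen, had -0.52 and -0.13 and were not called. Of 14 genes that stand for mitochondrial mass 12 were below 0 (median -0.38) and none was called, with Phb, a scaffold of the inner membrane, at -0.66 and the import pore gene Tomm40 at -0.61. Proliferation genes had a median of 0.05 over 18, with none called and Ccnb2 at 1.23 and Mcm6 at -0.67. All these lists lie on the scale of the deposited values, on which core T cell genes had a median of -0.97 (0 of 16 called, 8 lower with the block). With libraries scaled to the core T cell genes, which moved the median of all genes from -0.11 to 0.87, the direction of these lists turned: all 28 assembly genes, 16 translation factors, 20 synthetases, 17 genes for mitochondrial DNA and transcription, 10 regulators and 14 mass genes were above 0. Their medians were then 0.53, 0.68, 0.56, 0.64, 0.66 and 0.60, all under that of all genes. None of these genes was called in limma on that scale by group alone, but with the block 4, 3, 3, 6, 2 and 9 of them were called higher and 0 lower, where 53.9% of all genes were higher. Proliferation genes were then all above 0 (median 1.03), with 1 of 18 called higher by group alone and 17 with the block.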

How the data were processed

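Poly(A) RNA was sequenced from FcgRIIB-positive and FcgRIIB-negative OT-I cells, 4 libraries each. The deposited table gives RPKM per gene for 13204 genes, computed by the authors over exons per the file headers. Per the submitters' processing notes, TopHat2 and mm9 were used, with no version named. Libraries were amplified with SMART-seq and Nextera XT kits from 1000 cells, per the labels' protocols. No source used here gives the counting method. RPKM steps recovered 3050000 to 22010000 reads per library, with 99.85 to 100% of the examined low values whole within 0.1 read. Precision is that of 4 libraries a group.

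The 11946 genes that reached 1 RPKM in 4 or more libraries were tested on log2(RPKM + 1) with limma 3.58.1 in R 4.3.3 (trended moderation, Benjamini-Hochberg adjusted p under 0.05). A fold change on this scale understates that of low genes. Group was the sole term, and a second fit added the replicate number as a block, since the series' design text states that a number marks 1 pool of spleens. Deviations of libraries with the same number correlated at 0.70, 0.41, 0.56 and 0.68 over all genes. The code was tested on simulated data. Alternatives changed the pseudocount, filter, scaling, moderation and libraries.

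Members, lists, ribosomal places and named genes were chosen with earlier results of these data known. Named were members called with either fit, the 5 largest and 5 smallest fold changes, the 5 highest and 5 lowest levels, Mrpl12 and Mrps36, and per pathway list the called genes or the 2 of smallest p. Entrez IDs of 13187 genes matched GRCm38.p6, whose RefSeq promoter windows gave the sequences. GENCODE M21 served only for names of neighbours.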

Additional observations from a re-analysis of the deposited data

Results flagged for a closer look

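Of 50 groups of 4 libraries examined by Dixon's ratio of gap to range, 2 held a library that stood apart from the other 3. The groups were those of 22 named members and of the mean level of all, large subunit and small subunit members, in each sorted group. Chance alone gives about 1 in 20 for independent groups, whereas these share the same 8 libraries. Mrpl44 was included after its values were seen, so the 2 cannot be set against that rate. Positive replicate 1 of Mrpl19 was at 8.42 RPKM, with the other 3 positive libraries at 5.88 to 6.30 RPKM. Positive replicate 4 of Mrpl44 was at 9.45 RPKM, with the other 3 at 12.2 to 12.4 RPKM.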

How the results depend on the processing

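In the fit by group alone, no alternative of pseudocount, filter on low values, scaling, moderation or left-out library called a mitochondrial ribosomal protein gene, and replicates 1 and 2 alone called 1, Mrps35. The replicate block, for which the pairing comes from the pools, called 3 members lower and moved the counts over all genes from 362 higher and 32 lower to 863 and 460. Beside the block, members called lower numbered 3 with a common sum of RPKM, 2 with median ratios, 2 with quantile normalization and 0 to 2 with 1 pool left out, all among Mrps35, Mrps26 and Mrps6. These blocked combinations were chosen after seeing the data, and other members had the same call with and without the block on the deposited scale.

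Over all genes, the counts higher and lower were 220 and 8 with a common sum, 1124 and 0 with core T cell scaling, 875 and 142 in replicates 1 and 2, and 273 and 11 in replicates 3 and 4. Lower calls numbered 19 with median ratios, 59 with quantile normalization and 19 without the trend. With the block added, they were 6443 and 16 with core T cell scaling, 777 and 504 with a common sum, 1022 and 354 with median ratios, and 994 and 504 with quantile normalization. Leaving out 1 library gave 178 to 503 higher and 5 to 45 lower, and leaving out 1 pool with the block gave 576 to 1242 higher and 157 to 458 lower.

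The median log2 fold change of the members, -0.25, ran from -0.45 to -0.059 with 1 library left out and from -0.40 to 0.0040 with 1 pool left out under the block, the latter value without pool 2. It was 0.017 in replicates 3 and 4 alone and 0.74 with core T cell scaling, with or without the block. With core T cell scaling and the block together, 53 members (69.7%) were called higher, where 53.9% of all genes were. By construction that scaling raises all positive libraries, and single members turned to Mrps6 0.25, Mrps35 0.087, Mrps26 0.10, Mrps9 0.20, Mrps30 0.27, Mrpl23 0.76, Mrps16 0.55, Mrps22 0.55, Mrps2 0.75, Mrps31 0.67, Mrpl1 0.54, Mrpl19 0.42, Mrpl12 0.46, Mrps36 0.86 and Mrpl44 0.38, the same with the block. In replicates 1 and 2 alone the sign turned for Mrpl42 -0.036, Mrpl14 -0.12, Mrps25 -0.016, Mrps18c -0.42, Mrps21 -0.57 and Mrps33 -0.38, and in replicates 3 and 4 alone for Mrps27 -0.011, Mrpl23 0.33, Mrps16 0.23, Mrps2 0.017 and Mrps36 0.36. Quantile normalization, with and without the block, gave Mrps21 -0.0058. The cause of these turns was not tested.

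With 1 library, or 1 pool under the block, left out, the log2 fold change ran from -0.080 to 0.71 for Mrpl14, -0.37 to 0.71 for Mrps18c, -0.49 to 0.70 for Mrps21, -0.27 to 0.50 for Mrps33, -0.50 to 0.27 for Mrps36, -0.75 to 0.33 for Mrpl23, -0.90 to 0.082 for Mrps16 and -0.12 to 0.47 for Mrps25. Shallow libraries limit single genes: the least covered member had 44 reads in negative replicate 4, and a difference of the size of the median standard error, 0.41 by group alone and 0.26 with the block, lies within the error.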
